A study of Homo sapiens with 8 samples.

Results

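The promoters of 52 cell-cycle genes were examined on SMAD3 promoter arrays. The genes encode cyclins and cyclin-dependent kinases, the E2F factors with their pocket protein partners, regulators of mitosis, the origin licensing machinery and the checkpoint kinases. They were chosen by name, and no measured value entered the rule, although earlier results of these data were known. A probe was taken when the array annotation gave it the symbol of a member or a distance to the start of a member. All 52 were found among the 17132 genes of the annotation, with 1557 of the 474411 probes, and 1553 probes remained after outlier spots were left out. DNA was immunoprecipitated from A549 cells, a line from a human lung carcinoma with features of alveolar epithelium, with an antibody against SMAD3 (SMAD3 IP, Cy5) or with an anti-FLAG antibody as control (mock IP, Cy3). The cells were either unstimulated (basal) or stimulated with TGFβ1 (2 ng/ml). The labels give a maximum of 2 h for this, while another passage of the study gives a shorter time. Cells of both groups had been serum-starved before, and the labels name no transgene, deletion or clone in either group. There were 2 biological replicates of either condition, and the DNA of each was put on 2 slides that hold different probes. The arrays measured DNA, so no expression of a marker gene could be set against the labelled cell type.

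Progress from G1 into S phase is driven by D-type cyclins with CDK4 and CDK6 and by E-type cyclins with CDK2, which phosphorylate RB1 and its relatives RBL1 (p107) and RBL2 (p130) and so free the E2F factors to activate genes of DNA replication and mitosis. TGFβ is known to arrest epithelial cells in G1. Its receptors phosphorylate SMAD3, which enters the nucleus with SMAD4, binds short GC-rich or CAGAC-type elements and can act together with E2F4 or E2F5 and RBL1 on repressed cell-cycle genes.

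The 250 bases before the RefSeq start (GRCh38.p14, written 5′ to 3′ on the strand of the gene) are shown for the 4 promoters whose ratios rose or fell by a large amount and on which the results below turn. CCNA2 lies at chr4:121823884-121824133 on the minus strand, RBL1 at chr20:37095998-37096247 on the minus strand, E2F4 at chr16:67191905-67192154 on the plus strand and CCNB1 at chr5:69166900-69167149 on the plus strand. Capitals mark the motifs that were searched on both strands, namely the SMAD box CAGAC, the SMAD palindrome GTCTAGAC, the GC-rich SMAD motifs GGCGC and GGCCG, the E2F motifs TTTCGCGC and TTTGGCGC, the CHR element TTTGAA and the CCAAT box.
CCNA2: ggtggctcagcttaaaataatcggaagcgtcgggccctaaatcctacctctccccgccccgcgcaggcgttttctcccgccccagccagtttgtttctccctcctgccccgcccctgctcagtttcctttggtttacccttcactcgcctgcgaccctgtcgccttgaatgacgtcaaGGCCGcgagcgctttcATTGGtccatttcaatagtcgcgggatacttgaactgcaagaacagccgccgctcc
RBL1: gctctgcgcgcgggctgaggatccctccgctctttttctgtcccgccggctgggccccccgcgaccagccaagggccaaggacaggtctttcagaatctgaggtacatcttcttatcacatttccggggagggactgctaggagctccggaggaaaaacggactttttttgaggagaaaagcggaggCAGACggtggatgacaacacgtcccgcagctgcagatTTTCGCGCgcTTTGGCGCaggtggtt
E2F4: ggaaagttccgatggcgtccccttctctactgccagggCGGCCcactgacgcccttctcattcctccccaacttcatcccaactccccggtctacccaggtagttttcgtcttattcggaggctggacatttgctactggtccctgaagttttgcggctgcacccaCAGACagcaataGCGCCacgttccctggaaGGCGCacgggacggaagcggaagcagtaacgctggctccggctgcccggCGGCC
CCNB1: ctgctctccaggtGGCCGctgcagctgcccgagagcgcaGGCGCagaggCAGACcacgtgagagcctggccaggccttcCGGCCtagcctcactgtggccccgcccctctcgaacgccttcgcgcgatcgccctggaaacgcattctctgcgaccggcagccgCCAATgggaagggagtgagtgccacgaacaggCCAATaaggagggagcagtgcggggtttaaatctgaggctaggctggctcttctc

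In RBL1 the E2F motif TTTCGCGC began at -26 and TTTGGCGC, which itself holds a GGCGC, at -16, with a CAGAC at -63. CCNA2 held a CCAAT box at -56 and a GGCCG at -72 and none of the other motifs. E2F4 held 1 CAGAC, 2 GGCGC and 2 GGCCG, and CCNB1 held 2 CCAAT boxes, 1 CAGAC, 1 GGCGC and 2 GGCCG. RefSeq promoters were matched by symbol for 42 members, which have 63 promoters. Of these, 5 held TTTCGCGC (7.94%), against 0.439% of all 35116 promoters, and they belonged to RBL1, TFDP1, MCM6, MCM7 and CDC2 (now CDK1). TTTGGCGC occurred in 4 (6.35%, against 0.55%), those of E2F1, E2F2, MCM6 and RBL1. The CCAAT box was present in 55.6% of member promoters and 32% of all, GGCGC in 73% and 44.5%, and GGCCG in 68.3% and 44.7%. CAGAC was found in 22.2% and 38%, TTTGAA in 14.3% and 13.3%, and GTCTAGAC in 0 of 63 and 0.182%. These counts describe letters within 250 bases, not occupied sites.

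The array annotation names no genome build, and positions of probes are therefore given only as distance from the annotated start, with minus signs upstream. The value of a gene was the mean SMAD3 IP to mock IP log2 ratio over the probes from 2000 bp upstream to 800 bp downstream. The ratio of each array was centred on its median probe, so that 0 stands for the median probe and not for absence of SMAD3. Genes with at least 4 probes in this window were tested, which left 15961 genes and 51 members. AURKA, the kinase of the mitotic spindle poles, had 3 probes there and was not tested. Its mean ratio was -0.66 and -0.45 at the basal level and -0.67 and -0.74 after TGFβ1. Array medians before centring were 0.24 to 0.72, and between 38.7% and 51.5% of an array's probes stood well above background with Cy5 and with Cy3 alike. All arrays were scanned on the same day with the same scanner. Replicates of a condition correlated at 0.952 (basal) and 0.875 (TGFβ1) over the 51 members, and values of different conditions at 0.0644 to 0.193. Over all genes these correlations were 0.947, 0.950 and 0.262 to 0.280. Genes within an array are not independent replicates.

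After TGFβ1 the SMAD3 IP to mock IP ratio rose at 12 of the 51 member promoters and fell at 10 (limma, adjusted p below 0.05). This was 43.1% of the members, whereas 47.9% of all genes tested were called (20.4% rose and 27.5% fell), so the share of called members was near that of the genome. The median change was -0.06 on the log2 scale for members and -0.06 for all genes. With the deposited ratios, which are not centred, 14 members rose and 5 fell, the median of all genes shifted to 0.08, and 55.7% of all calls were increases in place of 42.5%. With loess within each array 14 rose and 9 fell. Only 5 members were called with the normexp background correction and 6 with the median of the probes in place of the mean. The counts under these alternatives stand without the share of all genes called, so they describe the processing and not the members. The replicates of both conditions did not overlap at 36 members, and 74.8% of all genes showed this. The largest increases were at CCNA2, RBL1, E2F4, CCNF, BUB1 and RB1, and the largest decreases at CCNB1, CCND3, CCNE2, CDC20, WEE1 and E2F2.

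**Figure D1:**
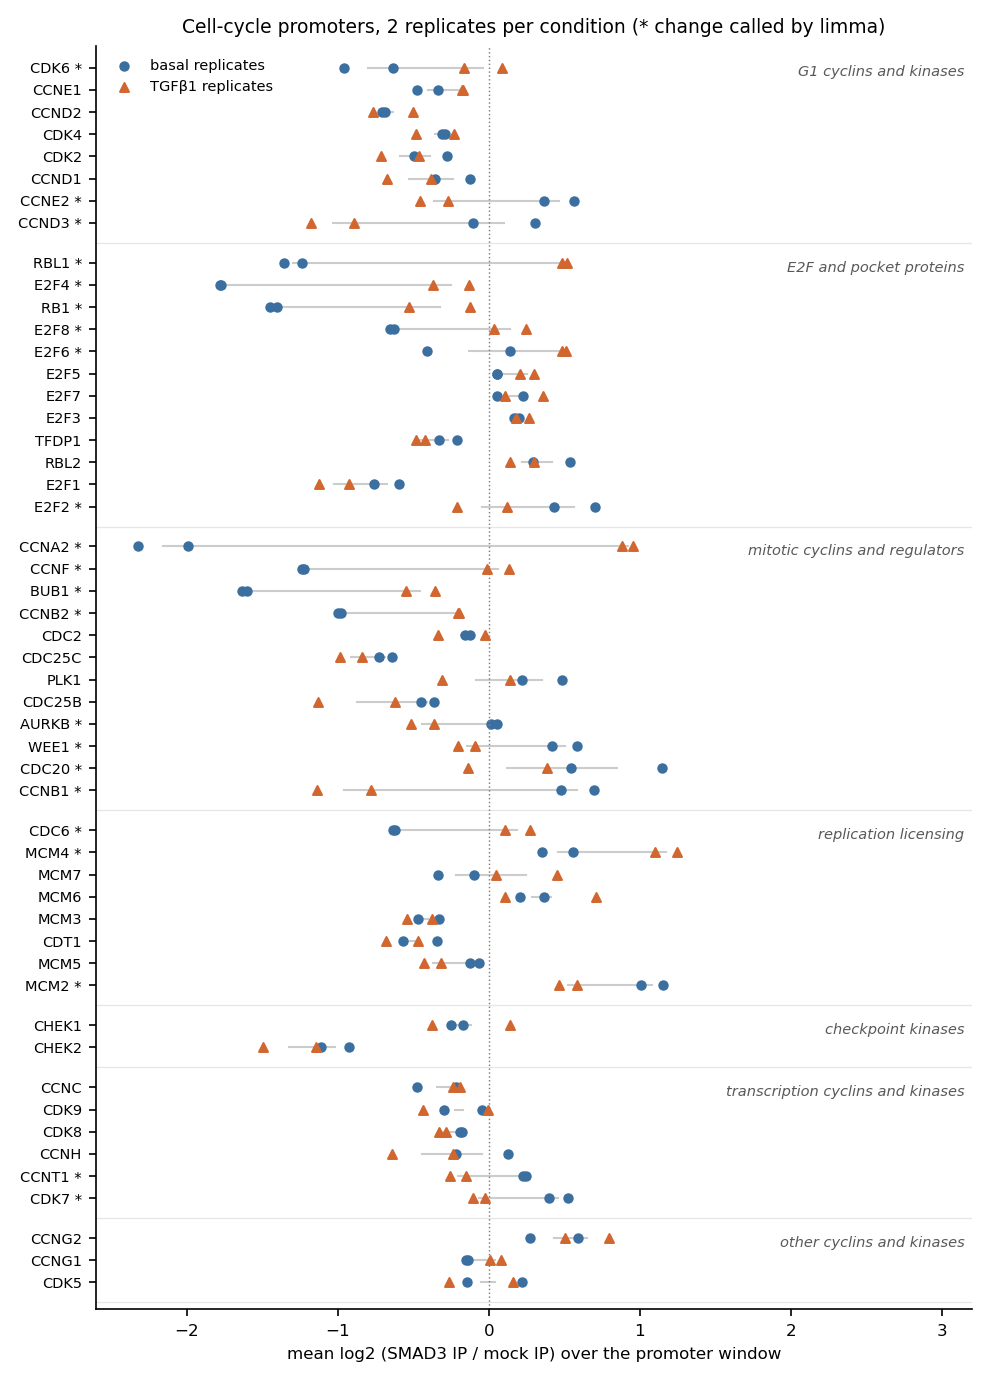
Mean SMAD3 IP to mock IP log2 ratio over the promoter window (x axis) for each of the 51 tested members, grouped by role (y axis). Circles are the 2 basal replicates, triangles the 2 TGFβ1 replicates, grey lines join the condition means, and an asterisk marks a change called by limma (22 members, with CCNA2 rising the most and CCNB1 falling the most).

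Among the G1 cyclins and their kinases 1 of 8 rose and 2 fell (37.5% called, against 47.9% of all genes). CCND3, a D-type cyclin, had ratios of 0.31 and -0.11 in the basal replicates and -0.89 and -1.18 after TGFβ1. The conditions did not overlap, and the ratio fell by 1.14 ± 0.18 (SE, n = 2 per condition, limma adjusted p = 0.000974), with 7 of its 10 window probes well above background in both channels on all arrays. CCNE2, an E-type cyclin that activates CDK2, went from 0.36 and 0.56 to -0.27 and -0.46. The conditions did not overlap here either, and the change was -0.83 ± 0.15 (adjusted p = 0.00184). CDK6, a partner of the D-type cyclins, had -0.64 and -0.96 at the basal level and 0.08 and -0.17 after TGFβ1. Its ratio rose by 0.76 ± 0.17 (adjusted p = 0.00542) without overlap of the conditions.

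The remaining G1 genes did not pass the test. CDK4, the other kinase of the D-type cyclins, had window means of -0.31 and -0.29 at the basal level and -0.23 and -0.48 after TGFβ1, which overlap (change -0.06 ± 0.14, adjusted p = 0.780). The sign of that change turned with the deposited ratios (0.078) and with the normexp background correction (0.023), and 11 of its 16 window probes are shared with MARCH9. CCND1, CCND2, CCNE1 and CDK2 changed by -0.29, 0.06, 0.23 and -0.20, each with an adjusted p above the threshold.

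Of the 12 E2F and pocket protein genes 5 rose and 1 fell. This was 50% called, against 47.9% of all genes, of which 20.4% rose and 27.5% fell. The difference was not tested. RBL1, the pocket protein p107 that binds E2F4, had -1.24 and -1.36 at the basal level and 0.52 and 0.49 after TGFβ1. The replicates lay close together and far apart from those of the other condition, and the ratio rose by 1.80 ± 0.13 (adjusted p = 1.39e-05), a 3.48-fold change with 8 of 9 window probes above background. E2F4, a repressor E2F, went from -1.78 and -1.78 to -0.13 and -0.37. The increase was 1.53 ± 0.14 (adjusted p = 5.03e-05) without overlap. Of its 12 window probes 8 are shared with EXOC3L, and 6 were above background in both channels on all arrays. The largest increases lay upstream, at -603, -494 and -385 bp (5.81, 5.40 and 4.14), and of these only the probe at -494 was above background in this way. Near the start, at -21 and 203 bp, the ratio changed by -0.87 and -0.98 (limma adjusted p = 0.0487 and 0.122). RB1, the retinoblastoma protein, had -1.45 and -1.40 and then -0.53 and -0.13, an increase of 1.1 ± 0.16 (adjusted p = 0.000693). E2F8 and E2F6, both repressor E2Fs, rose by 0.78 ± 0.14 and 0.63 ± 0.19 (adjusted p = 0.00202 and 0.0233).

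E2F2, an activator E2F, was the only gene of this group that fell. It had 0.70 and 0.43 at the basal level and 0.12 and -0.21 after TGFβ1, a change of -0.61 ± 0.17 (adjusted p = 0.0162). The call was lost without basal replicate 1 (-0.48, adjusted p = 0.0715) and without TGFβ1 replicate 2 (-0.44, adjusted p = 0.120). E2F1, the activator under control of RB1, was low throughout, with -0.76 and -0.59 before and -0.93 and -1.13 after stimulation (change -0.35 ± 0.15, adjusted p = 0.0762). E2F5, which like E2F4 binds the RB1 relatives, had 0.06 and 0.05 and then 0.30 and 0.21. These did not overlap, but the difference of 0.20 ± 0.13 did not pass the test (adjusted p = 0.251). The changes at E2F3, E2F7, TFDP1 (a dimer partner of the E2Fs) and RBL2 were between -0.20 and 0.10 and were not called.

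Of 12 tested genes of mitosis 4 rose and 4 fell (66.7%, against 47.9% of all genes, a difference that was not tested). CCNA2, the A-type cyclin of S and G2 phase, gave the largest change of all members. Its ratio was -1.99 and -2.33 at the basal level and 0.95 and 0.88 after TGFβ1, and it rose by 3.08 ± 0.15 (adjusted p = 1.67e-06), or 8.46-fold, the 99.4th percentile of all genes. Of its 7 window probes 3 were above background in both channels on all arrays. The CCNA2 probe at -194, which rose by 6.80, was not among them, as its mock IP was not well above background after TGFβ1. CCNB1, the B-type cyclin that drives entry into mitosis, moved the other way, from 0.70 and 0.48 to -0.78 and -1.14. It fell by 1.55 ± 0.17 (adjusted p = 0.000111) without overlap, and 5 of 11 probes were above background. Much of this came from the probe at 567 bp, and the mean of the other 10 probes was 0.42 and 0.15 at the basal level and -0.24 and -0.56 after TGFβ1, a difference of -0.68.

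CCNB2, the other B-type cyclin, had -0.98 and -1.0 at the basal level and -0.20 and -0.20 after TGFβ1, an increase of 0.79 ± 0.13 (adjusted p = 0.00127). CCNF, the cyclin of an SCF ubiquitin ligase, went from -1.23 and -1.24 to -0.01 and 0.13 (change 1.29 ± 0.14, adjusted p = 9.39e-05). BUB1, a kinase of the spindle checkpoint, went from -1.64 and -1.61 to -0.36 and -0.55 (change 1.17 ± 0.14, adjusted p = 0.000203). The BUB1 probes at 473 and 719 bp rose most, by 5.73 and 5.76, and neither channel stood well above background there after TGFβ1. No other BUB1 probe of the window was called, so the window change rested largely on these dim probes. The BUB1 call was lost in 5 of 17 alternatives. Probes above background in both channels on all arrays were 2 of 7 at CCNB2, 12 of 18 at CCNF and 4 of 11 at BUB1. In all of these genes the conditions were separate and the basal values were the lower ones. CDC20, an activator of the anaphase-promoting complex, had 0.55 and 1.15 and then 0.38 and -0.14, and it fell by 0.72 ± 0.23 (adjusted p = 0.0323) with basal replicates that differed by more than the nearest values of the conditions. Its call was lost without basal replicate 2 (-0.42, adjusted p = 0.116), TGFβ1 replicate 1 (-0.99, adjusted p = 0.0605) or TGFβ1 replicate 2 (-0.46, adjusted p = 0.272). WEE1, which inhibits CDC2, had 0.42 and 0.59 and then -0.09 and -0.20 (change -0.65 ± 0.14, adjusted p = 0.00511). AURKB, the chromosomal passenger kinase, fell by 0.47 ± 0.14 (adjusted p = 0.0206). CDC2, the phosphatases CDC25B and CDC25C and the kinase PLK1 changed by -0.04, -0.47, -0.23 and -0.44 and were not called.

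Among the 8 origin licensing genes 2 rose and 1 fell (37.5% called, against 47.9% of all genes). CDC6, which loads the MCM helicase on origins, had -0.62 and -0.64 at the basal level and 0.27 and 0.11 after TGFβ1, and it rose by 0.82 ± 0.14 (adjusted p = 0.00132). Of its 11 window probes 3 were above background in both channels on all arrays. Only 1 probe rose, at 415 bp with a change of 7.85, and 1 fell, at 70 bp with -1.47. The window change of CDC6 thus rested largely on the probe at 415 bp. MCM4, a helicase subunit, had 0.56 and 0.35 and then 1.25 and 1.1, the highest level of all members after stimulation (change 0.72 ± 0.15, adjusted p = 0.00356). MCM2, another subunit, had 1.01 and 1.15, the highest basal level of all members, and then 0.47 and 0.58 (change -0.56 ± 0.14, adjusted p = 0.0101). Thus neither subunit had overlapping conditions, and their changes were opposite. The MCM2 call was lost without basal replicate 2 (-0.49, adjusted p = 0.0653) and without TGFβ1 replicate 1 (-0.50, adjusted p = 0.0608). CDT1, MCM3, MCM5, MCM6 and MCM7 changed by -0.12, -0.06, -0.28, 0.13 and 0.46 and did not pass the test.

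Neither checkpoint kinase was called. CHEK2, which acts downstream of ATM, had only 4 window probes, 1 of them above background, and the lowest level of all members after TGFβ1, with -0.92 and -1.11 before and -1.50 and -1.15 after (change -0.31 ± 0.16, adjusted p = 0.158). Of these 4 probes 2 are shared with HSCB, as 2 of the 6 MCM4 probes are with PRKDC. CHEK1 changed by 0.09. Of 6 cyclins and kinases of transcription, CDK7, the kinase of TFIIH, and CCNT1, the cyclin of the elongation factor P-TEFb, fell by 0.53 and 0.44 (adjusted p = 0.0123 and 0.0250). These 2 were 33.3% of the group, against 47.9% of all genes called. CCNC, CDK8, CCNH and CDK9 changed by 0.13, -0.12, -0.39 and -0.05 and were not called. CCNG2, a cyclin linked to growth arrest, had 0.59 and 0.27 and then 0.80 and 0.50, which overlap, and its change of 0.22 ± 0.17 was not called (adjusted p = 0.319). CCNG1 and CDK5 changed by 0.19 and -0.09.

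Against the mock IP, 33 members differed from the array median at the basal level, 11 above and 22 below, and 59.2% of all genes were called (20.7% above and 38.5% below). After TGFβ1 there were 28, with 8 above and 20 below, against 59.5% of all genes (16.6% and 42.9%), and 18 without TGFβ1 replicate 2. These directions depend on where 0 lies. With loess, 21 members were above and 11 below at the basal level and 26 and 6 after TGFβ1, and with the deposited ratios 26 and 10, and 37 and 5. The levels are therefore read here as an order. MCM2, CDC20 and CCNB1 were highest at the basal level (1.08, 0.85 and 0.59), and CCNA2, E2F4 and BUB1 lowest (-2.16, -1.78 and -1.62). After TGFβ1, MCM4, CCNA2 and CCNG2 were highest (1.18, 0.92 and 0.65), and CHEK2, CCND3 and E2F1 lowest (-1.32, -1.04 and -1.03). The replicate ranges of CDC20 overlapped those of MCM2 and CCNB1 at the basal level, and the range of CCND3 overlapped those of CHEK2 and E2F1 after TGFβ1. The ranges of the 3 lowest basal and the 3 highest TGFβ1 members were separate from their neighbours in the triplet.

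The ratio has 2 components, and each was tested alone as log2 signal centred on the median probe of the array. In the SMAD3 IP channel 0 of 51 members were called by limma (all genes 2.4%, with 0.783% higher and 1.62% lower). The lowest adjusted p was 0.0669, at CCNB2. An unadjusted p below 0.05 was found at 6 of the 51 members and at 2119 of all 15961 genes. In the mock IP channel 8 were called, 1 higher and 7 lower after TGFβ1 (all genes 13.8%, with 6.34% higher and 7.51% lower). Here 16 of the 51 members and 4509 of all 15961 genes had an unadjusted p below 0.05. In both channels this share of the members was near that of all genes. The number of mock IP calls depended strongly on which replicate was left out and was 0 with normexp, so single calls in the mock IP are given with this limit. At the 12 promoters whose ratio rose, the median change was -0.10 in the SMAD3 IP and -1.25 in the mock IP. The mock IP was lower in 10 of them and the SMAD3 IP higher in 6. At the 10 whose ratio fell, the SMAD3 IP changed by a median of 0.26 and the mock IP by 0.95, with the mock IP higher in 9 and the SMAD3 IP lower in 2. Among all genes with a risen ratio the mock IP was lower at 83.7% and the SMAD3 IP higher at 50.8%. Among all genes with a fallen ratio the mock IP was higher at 86.2% and the SMAD3 IP lower at 54.0%, with a median SMAD3 IP change of -0.06, while that of the 10 members was 0.26.

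The mock IP signal of CCNA2 was 4.70 and 5.86 at the basal level and 1.56 and 1.67 after TGFβ1, a change of -3.66 ± 0.45 (limma adjusted p = 0.0191). Its SMAD3 IP signal was 2.89 and 3.66 and then 2.52 and 2.64 (-0.70 ± 0.34, adjusted p = 0.482). The window means of both channels were lower after stimulation, but single CCNA2 probes differed. At 173 bp the SMAD3 IP rose by 2.39 (adjusted p = 0.0358) and the mock IP fell by 4.77 (adjusted p = 0.00545), whereas at 467 bp the SMAD3 IP fell by 6.02 (adjusted p = 0.0295) and the mock IP fell by 7.84 (adjusted p = 0.00107). At RBL1 the mock IP went from 4.55 and 4.55 to 1.57 and 1.96 (-2.79 ± 0.22, adjusted p = 0.0100) and the SMAD3 IP from 3.88 and 3.88 to 2.66 and 3.26 (-0.92 ± 0.31, adjusted p = 0.281). At E2F4, RB1, CCNF and CCNB2 the mock IP fell by 2.14, 1.83, 1.69 and 2.27 (adjusted p = 0.0210, 0.0128, 0.0146 and 0.0120), and the SMAD3 IP changed by -0.54, -0.66, -0.33 and -1.41, none of them called. CCNE1, which was not called by its ratio, had a mock IP change of -1.13 (adjusted p = 0.0463).

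CCNB1 was the only member whose mock IP was called higher, from 1.53 and 2.45 to 4.24 and 4.25 (2.26 ± 0.37, limma adjusted p = 0.0343). Its SMAD3 IP was 2.42 and 3.05 and then 3.47 and 3.19 (0.60 ± 0.33, adjusted p = 0.531, not called). The largest mock IP changes of its window were 9.19 at 420 bp and 10.61 at 567 bp. At 420 bp the SMAD3 IP also rose, by 6.15 (limma adjusted p = 0.0107). The CCNB1 window means of both channels thus rested largely on these probes. CCND3 had changes of 1.25 ± 0.48 in the SMAD3 IP and 2.50 ± 0.68 in the mock IP (adjusted p = 0.351 and 0.101). WEE1 was an exception among the genes that fell, with -0.69 in the SMAD3 IP and -0.11 in the mock IP. At MCM4 and E2F6 the SMAD3 IP changed by 0.70 and 0.98 and the mock IP by 0.09 and 0.46. None of the changes of CCND3, WEE1, MCM4 and E2F6 in a single channel was called.

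**Figure D2:**
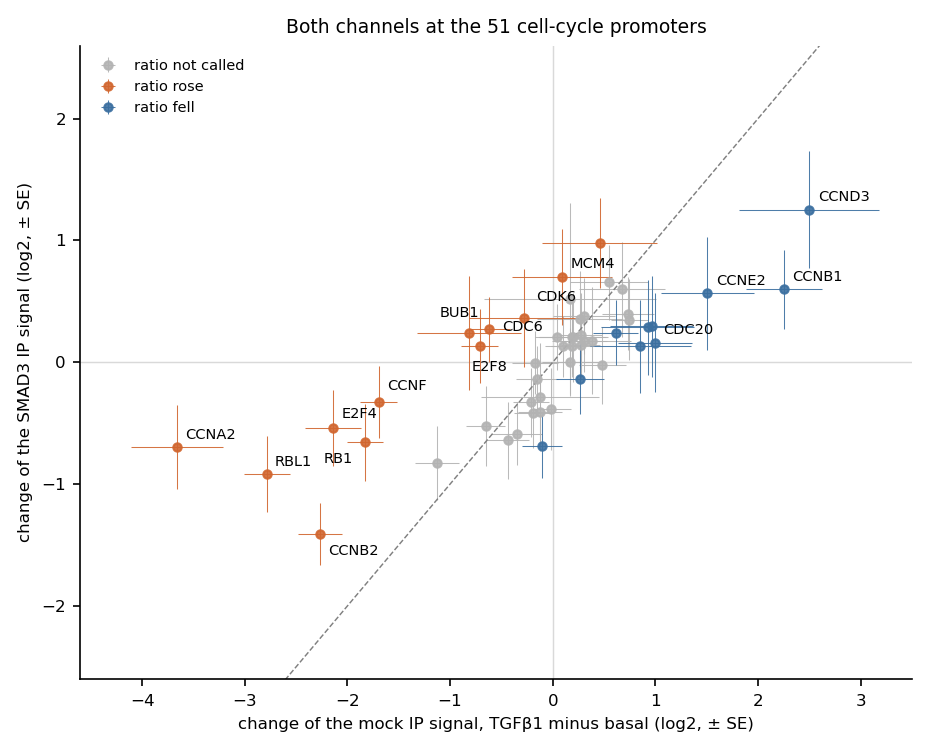
Change of the mock IP signal (x axis) and of the SMAD3 IP signal (y axis), both log2 and TGFβ1 minus basal, at the 51 tested promoters, with bars of 1 SE. Orange points had a ratio that rose, blue points a ratio that fell, and the dashed line marks equal changes. CCNA2 and RBL1 lie far to the left, with mock IP changes of -3.66 and -2.79, and the points spread more along the mock IP axis than along the SMAD3 IP axis.

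Window means combined probes that moved differently. The SD of the log2 ratio between probes of the same window, averaged over the replicates, had a median of 1.53 across the 51 members and of 1.43 across all genes. In 27 members (52.9%) the window held a probe that rose and a probe that fell, and this was so in 48.8% of all genes. The ratio at the CCNA2 probe 173 bp downstream of the start was -2.96 and -3.63 at the basal level and 4.26 and 3.69 after TGFβ1, the largest change among the CCNA2 probes above background. At RBL1 6 of 9 probes rose and 0 fell, in contrast to E2F4, where 5 of 12 rose and 1 fell. Near the E2F4 start, the probes at -21 and 203 bp had positive ratios in both conditions, with 2.42 and 2.46 and then 1.40 and 1.74 at the former, and 2.31 and 2.18 and then 1.60 and 0.94 at the latter. The probe between -21 and the more distant upstream probes, at -136, had -2.39 and -1.67 and then 0.19 and 0.23, and its ratio rose by 2.24 (adjusted p = 0.0229), although it was above background on 1 of 2 TGFβ1 arrays in each channel. Further upstream, the probe at -494 had -5.24 and -5.26 and then -0.59 and 0.89.

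At CCNB1 the probe at -57 kept a high ratio, with 2.72 and 2.34 at the basal level and 2.65 and 3.01 after TGFβ1. The probe 221 bp downstream went from 3.94 and 3.97 to 0.94 and 1.19, and 3 of the 11 CCNB1 probes fell. The probe at 567 bp, not well above background in the mock IP on either basal array, gave the largest decrease of any member probe, from 3.47 and 3.72 to -6.21 and -6.90. Its measured mock IP was higher after TGFβ1 by 10.61 on the log2 scale (adjusted p = 0.000200), while its SMAD3 IP changed by 0.34 (adjusted p = 0.712). The next CCNB1 probes, at 830 and 997 bp, had mock IP signals higher by 9.92 and 10.83 and lay beyond the window. These mock IP differences of CCNB1 were taken against dim basal spots and carry no exact size. Of the 18 CCNF probes 8 rose and 2 fell, of the 13 RB1 probes 5 and 1, of the 11 BUB1 probes 2 and 0, and of the 10 CCND3 probes 1 and 3. At RBL1 a probe at -35, next to the E2F motifs shown above if the array start and the RefSeq start coincide, had 1.21 and 1.34 and then 2.37 and 2.37. Its SMAD3 IP changed by -0.07 and its mock IP by -1.23, neither of them called (limma adjusted p = 0.935 and 0.0822).

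**Figure D3:**
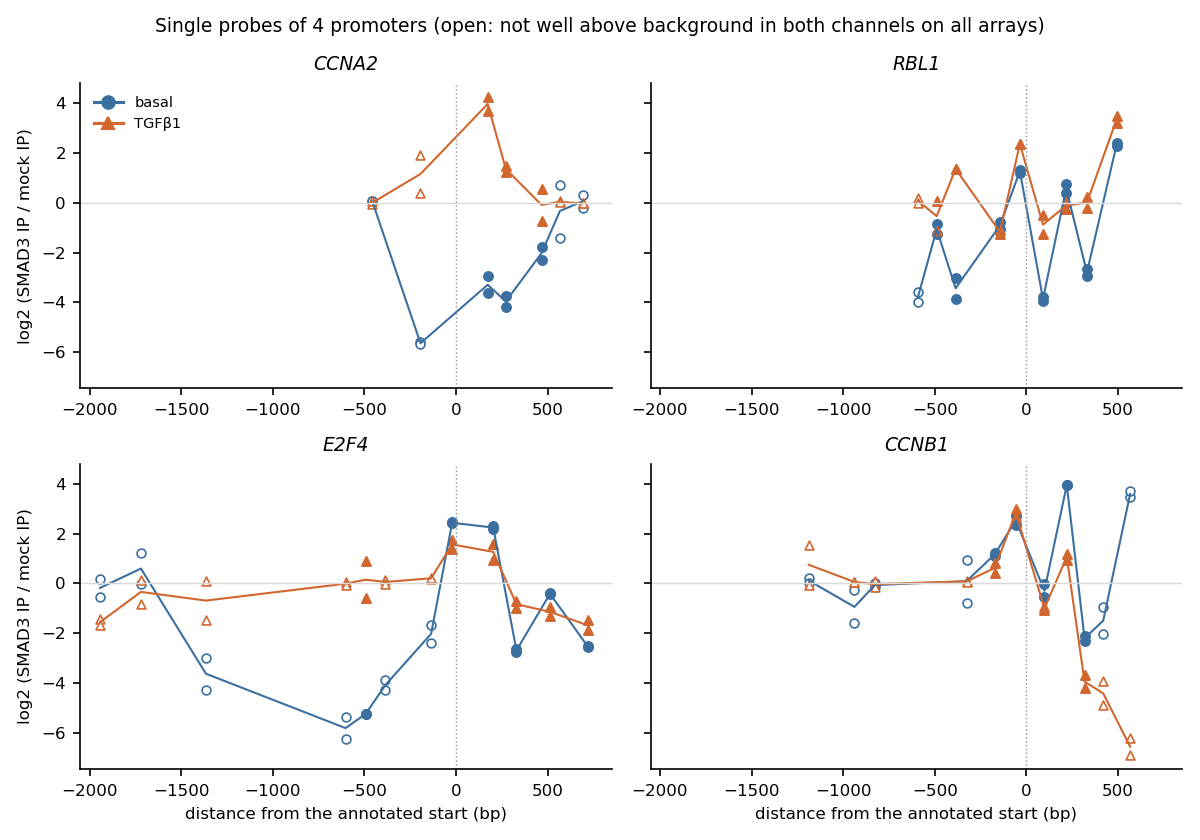
SMAD3 IP to mock IP log2 ratio (y axis) of single probes by distance from the annotated start in bp (x axis) for CCNA2, RBL1, E2F4 and CCNB1. Blue circles are basal and orange triangles TGFβ1 replicates, lines join the means, and open symbols are probes not well above background in both channels on all arrays. The CCNA2 conditions separate at 173 bp, while E2F4 and CCNB1 keep positive ratios at -21 and -57.

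Over all 1553 member probes 359 were called (181 rose and 178 fell), which is 23.1% against 22.9% of all probes (10.5% and 12.4%). Without basal replicate 1 or 2 the count was 152 or 129, and without TGFβ1 replicate 1 or 2 it was 229 or 205. Of the 565 well above background in both channels on all arrays 234 were called (111 rose and 123 fell), 41.4% against 44.4%. At the 111 probes that rose the SMAD3 IP changed by a median of 0.50 and the mock IP by -1.59, with 22 (19.8%) and 50 (45%) of them called in the channel alone. Among all probes above background whose ratio rose, 19.7% and 44.5% were called, and among all those above background, whatever their ratio, 10.4% and 21.9%. At the 123 that fell the medians were -0.99 and 1.01, with 25 (20.3%) and 38 (30.9%) called, against 18.8% and 33.9% of all probes above background whose ratio fell. At the basal level 461 member probes differed from the array median (163 higher and 298 lower, 29.7% in all, against 26.4% of all probes, with 8.92% higher and 17.4% lower). After TGFβ1 there were 433 (150 and 283, 27.9% in all, against 26.7%, with 8.22% and 18.5%). Without basal replicate 1 or 2 the former count was 259 or 208, and without TGFβ1 replicate 2 the latter was 248.

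The named probes were picked for their large changes, so that they exceed the promoter means follows from the choice. Changes ran from -10.2 to 10.1 over member probes and from -18.2 to 17.6 over all 473007 probes. At some of the named probes the SMAD3 IP itself changed. At CDC6, the probe 415 bp downstream of the start had ratios of -0.98 and -0.91 at the basal level and 7.25 and 6.58 after TGFβ1 (change 7.85 ± 0.28, limma adjusted p = 0.00260). The SMAD3 IP signal went from 3.46 and 3.64 to 10.96 and 11.21 (change 7.54, adjusted p = 0.00159), whereas the mock IP changed by -0.39 (adjusted p = 0.631). The probe 302 bp downstream had -2.59 and -2.61 and then -1.39 and -1.96 (not called), so that the increase rested on a single probe.

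At CDK4 the pattern was opposite and lay outside the promoter window. The probe 1291 bp downstream had ratios of 8.47 and 8.16 at the basal level and 0.47 and 0.48 after TGFβ1 (change -7.84 ± 0.15, adjusted p = 0.00203). Its SMAD3 IP signal fell from 12.68 and 12.59 to 0.82 and 1.18 (adjusted p = 0.00119), and the mock IP from 3.65 and 3.75 to -0.23 and -0.12 (adjusted p = 0.00114). The neighbouring probes at 1448 and 1551 bp had basal ratios of 9.84 and 9.64, and of 8.48 and 8.46. After TGFβ1 the probe at 1551 bp was not well above background in either channel. Its measured SMAD3 IP was lower by 13.87 and its mock IP by 5.46 on the log2 scale, differences against dim spots without an exact size. At the basal level the highest mean over neighbouring probes of the whole CDK4 region lay at 1448 bp, with 8.93 and 8.75 at the basal level and 0.23 and 0.53 after TGFβ1. No spot of this region was saturated.

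**Figure D4:**
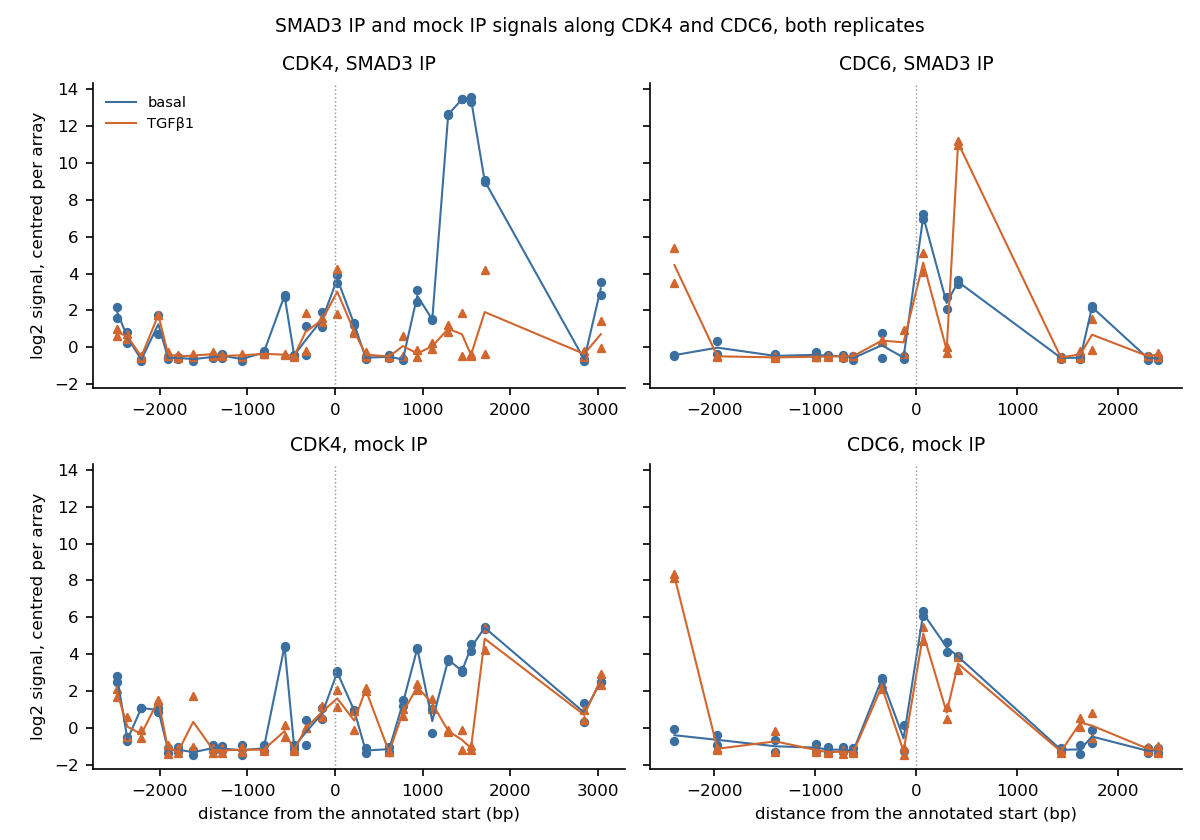
Log2 signal of the SMAD3 IP (upper panels) and of the mock IP (lower panels), centred per array, by distance from the annotated start of CDK4 and CDC6 in bp. Blue circles are basal and orange triangles TGFβ1 replicates, and lines join the means. The CDK4 probes at 1291 to 1551 bp stand out in the basal SMAD3 IP, with 12.68 and 12.59 at 1291 bp, and the CDC6 probe at 415 bp is high in the SMAD3 IP after TGFβ1, at 10.96 and 11.21.

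The largest increase of a single probe above background was at MCM7, a helicase subunit. The probe at -2225 had -3.85 and -3.68 at the basal level and 6.67 and 5.94 after TGFβ1, with changes of 7.11 in the SMAD3 IP and -2.85 in the mock IP (adjusted p = 0.0145 and 0.0568). At PLK1, which promotes entry into and exit from mitosis, the probe 1311 bp downstream went from -5.72 and -4.37 to 4.33 and 4.04, with changes of 4.38 and -4.91 (adjusted p = 0.0325 and 0.000719). Its change of 9.23 was no longer called without TGFβ1 replicate 1 (9.08, adjusted p = 0.0503). At CDK6 the probe at -156 went from -4.0 and -4.25 to 4.23 and 3.81. Here the mock IP fell by 6.16 (adjusted p = 0.00185), and the SMAD3 IP changed by 1.88 and was not called (adjusted p = 0.134).

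Among the probes well above background in both channels on all arrays, the CCNF probe 26272 bp downstream went from 3.60 and 3.58 to -4.98 and -4.69, and the E2F8 probe at -4028 from 4.90 and 5.39 to -3.48 and -2.80, the largest decreases of this set. In both the SMAD3 IP was lower (-2.38 and -3.87) and the mock IP higher (5.97 and 4.35) after TGFβ1. The CCNE2 probe at -5049 went from -0.03 and 2.20, replicates that differed widely, to -7.07 and -7.32. Its SMAD3 IP changed by 0.03 (adjusted p = 0.996) and its mock IP by 8.42. The change of -8.28 was not called without TGFβ1 replicate 1 (adjusted p = 0.0963) or 2 (adjusted p = 0.101).

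The highest mean over probes within 250 bp was also located for every member, as a description without test because the value chose the place. It lay at the same place in both basal replicates for 35 of 52 members (67.3%, all genes 66.8%) and in both TGFβ1 replicates for 36 (69.2%, all genes 65.7%). It was at the same place in both conditions for 23 members (44.2%), and for 34.4% of all genes. For CDC20, whose window mean fell, the highest place of both condition means was -19, with 1.57 and 1.80 and then 2.46 and 1.61, but basal replicate 2 alone was highest at -1819 (1.99). E2F5 had its highest place in all 4 replicates 213 bp downstream (1.74 and 1.77, then 2.19 and 2.00), CCNG2 at 411 bp (1.90 and 1.74, then 2.15 and 1.80), RBL2 at 182 bp (1.49 and 1.71, then 1.25 and 1.56) and E2F1 at -24 (1.09 and 0.98, then 1.51 and 1.46). That these means were positive in all 4 replicates says little, because each place was picked as the highest of its gene. For all genes the median height of the place so picked came to 0.995 without stimulation and 0.880 with TGFβ1. The basal values of E2F1 lay near the former, and the other values of these genes lay above the median of their condition. Binding of SMAD3 near these starts was not tested by this choice of places. At CCND1, another D-type cyclin, the basal place at -3062 had 2.80 and 2.87 and then -1.55 and -0.82, and the place of the TGFβ1 maximum 1424 bp downstream had 2.80 and 2.50 and then 2.26 and 2.00.

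By distance, the 127 member probes within 500 bp upstream of the start had a mean ratio of -0.23 and -0.24 at the basal level and -0.01 and -0.07 after TGFβ1. All 38313 probes of that interval had -0.08 and -0.13 and then -0.20 and -0.24. The 120 member probes of the 400 bp after the start had -0.05 and -0.08 and then 0.09 and 0.09, and the 33990 probes of all genes 0.07 and 0.04 and then -0.07 and -0.10. The mean over member probes thus lay lower than that of all genes at the basal level and higher after TGFβ1 in these intervals, a description without test. These means include single probes with very large changes, such as 7.27 at 173 bp of CCNA2 and -2.89 at 221 bp of CCNB1. Another was 6.80 at -194 of CCNA2, without an exact size because the mock IP there was dim after TGFβ1. No mean was taken without CCNA2, RBL1 and E2F4, so no trait shared by the members can be read from it.

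A list of 114 further cell-cycle genes, among them the anaphase-promoting complex, origin recognition, replication, cohesin, condensin and checkpoint genes, was counted in the same way. Of the 108 tested, 27 rose and 32 fell (54.6%, all genes 47.9%), with a median change of -0.13. In the SMAD3 IP alone 2 were called, both lower (1.85%, all genes 2.4%), and in the mock IP alone 24, of which 13 were higher and 11 lower (22.2%, all genes 13.8%). No difference between the list and all genes was tested.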

How the data were processed

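Groups and replicate numbers came from the sample labels. The authors deposited, per spot, Cy5 and Cy3 intensities from Agilent Feature Extraction 9.5.1.1, background-subtracted, detrended and scaled per dye, with surrogate values for dim spots. They also deposited log2 ratios of the same signals, which differ from the processed intensities by at most 3.13e-06 and are uncentred. The study's methods name another scanner, a smaller array format and 3 replicates, whereas 8 arrays with 2 replicates per condition were analysed.

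The 52 members and all lists were chosen with earlier results of these data known. Control spots and 1404 outlier probes were left out. For each probe the processed SMAD3 IP signal was divided by the mock IP signal, the log2 of this was centred per array on the median probe without loess, and gene values were averages over probes from 2000 bp upstream to 800 bp downstream. Genes and probes were tested with limma 3.58.1 (lmFit and eBayes, all 4 replicates, Benjamini-Hochberg at 0.05 over all features), and each channel likewise. The scripts were tested on simulated data. Named with full values were the 6 largest calls in each direction, the 3 highest and 3 lowest members of each condition, CDK4, E2F4, E2F5 and RBL1, and the 4 probes above background with the largest change in each direction. CCNB2, CDC6 and all other called members came beside them. Promoters, 250 bases before the start, were taken from RefSeq (GRCh38.p14). Alternatives were normexp (offset 50), loess, equal spread, the deposited ratios, filters on dim probes, other windows and summaries, at least 8 probes, a block for replicates, separate slides and fits without each replicate. R 4.3.3, the data.table package (1.17.8), Python 3.11.15, numpy 2.4.6, pandas 2.3.3 and matplotlib 3.10.9 were used. The replicate number and signal over background limit the precision of every value, and fold changes against surrogate values at dim probes carry no exact size. The labels call the replicates biological without naming separate cultures, so the p-values measure the spread between these samples. In limma this spread is drawn towards that of all features, with a prior of 6.38 degrees of freedom for genes. The SE of a gene therefore rests largely on the pooled spread and only in part on its own 2 replicates per condition.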

Additional observations from a re-analysis of the deposited data

How the results depend on the processing

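The 21 named promoters had 344 alternative values, of which 267 kept direction and side of the threshold, 51 lost the call, 6 gained it and 20 turned direction. The 8 mock IP calls had 99, with 53 unchanged in call and 46 lost, and the 8 named probes had 96, with 89 unchanged and 7 lost. RBL1 kept its call in 16 of 17 alternatives and CCNA2 in 14 of 15. Where a cause is not given, it was not tested.

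Counts of called members moved as follows. They stand without the share of all genes or probes called under the same setting, so they describe the processing and not the members. With normexp, 5 changes were called in place of 22, 69 probe changes in place of 359, 2 members over mock at the basal level in place of 33, 15 after TGFβ1 in place of 28, 31 basal probes in place of 461, 94 TGFβ1 probes in place of 433 and 0 mock IP changes in place of 8. With the median of the probes these were 6 changes, 12 members at the basal level and 7 after TGFβ1. With the deposited ratios, which are uncentred, 773 basal and 925 TGFβ1 probes were called. In the SMAD3 IP alone 1 member was called, in place of 0, with probes above background in at least 1 channel, with all annotated probes, within 500 bp of the start, with the replicate block and with fits per slide. In the mock IP alone there were 5 with probes above background in at least 1 channel, 2 with both channels, 5 with all annotated probes and 15 with fits per slide. Leaving out each replicate gave 16 to 20 changes, 129 to 229 probe changes, 24 to 34 members and 208 to 389 probes at the basal level, 18 to 27 members and 248 to 301 probes after TGFβ1, 0 members in the SMAD3 IP and 0 to 32 in the mock IP.

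The same replicate numbers occur in both conditions, but nothing in the labels pairs them, and deviations of same-numbered replicates correlated at 0.107 over genes and 0.021 over probes. With the replicate block 25 changes, 284 probe changes, 1 SMAD3 IP and 4 mock IP changes were called, and the mock IP calls of CCNB1, CCNE1, CCNF and E2F4 were lost.

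Directions turned mainly where other probes were averaged. Around the highest neighbourhood the change was -0.056 at CCNA2, 0.041 at CCND3, 1.20 at CCNE2, 0.35 at CDC20, -2.17 at CDC6, 0.15 at CHEK2, 0.45 at E2F1, -0.13 at E2F5 and 2.28 at WEE1. With all annotated probes it was -0.12 at CCNF, 0.045 at E2F1, -0.14 at MCM4 and 0.24 at WEE1. CDK4 gave 0.023 with normexp, 0.078 with the deposited ratios, 0.53 with probes above background in at least 1 channel, 0.057 with the median of the probes and -0.18 to 0.068 with a replicate left out, the highest without TGFβ1 replicate 2. CHEK2 gave 0.34 with the median, and E2F1 gave 0.066 with probes above background in both channels.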
